A study of Mus musculus with 4 samples.

Results

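Iron and heme handling genes were examined in the brains of mice with and without stroke and angiotensin II. The set held 9 genes picked by name for their roles in breaking down heme, storing iron and moving it across membranes, namely Hmox1, Blvrb, Hpx, Fth1, Ftl1, Slc40a1, Cp, Tfrc and Slc11a1. All 9 were found among the 33981 genes measured. By the positions in the tables, which for 8 of the 9 equal those of GRCm38 in GENCODE M21 (not for Fth1), Hmox1 (ENSMUSG00000005413) lies at chr8:75093621-75100589, Blvrb (ENSMUSG00000040466) at chr7:27447978-27466144, Fth1 (ENSMUSG00000024661) at chr19:9982703-9985092, Tfrc (ENSMUSG00000022797) at chr16:32608920-32632794, Cp (ENSMUSG00000003617) at chr3:19957054-20009145 and Slc11a1 (ENSMUSG00000026177) at chr1:74375195-74386062 on the plus strand. On the minus strand, Hpx (ENSMUSG00000030895) lies at chr7:105591613-105600137, Ftl1 (ENSMUSG00000050708) at chr7:45457944-45459884 and Slc40a1 (ENSMUSG00000025993) at chr1:45908068-45926523.

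Heme that leaks from red blood cells or dying cells is bound in plasma by hemopexin (Hpx) and is opened inside cells by heme oxygenase 1 (Hmox1), which frees iron, carbon monoxide and biliverdin. Biliverdin reductase B (Blvrb) acts on flavins and on some forms of biliverdin. Freed iron is stored in ferritin, a shell built of heavy (Fth1) and light (Ftl1) chains, or leaves the cell through ferroportin (Slc40a1), with ceruloplasmin (Cp) oxidizing it so that transferrin can carry it. Cells take up transferrin iron through the transferrin receptor (Tfrc), and phagocytes move iron out of the phagosome with NRAMP1 (Slc11a1). In injured brain, microglia, macrophages and astrocytes are known to carry much of this handling.

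Bulk RNA sequencing was done on brain tissue around the prefrontal cortex of male C57BL/6J mice aged 3 to 5 months. Mice were infused under the skin for 28 days with saline (NT) or with angiotensin II (HT, a daily dose of 0.28 mg/kg), a hormone that raises blood pressure. On day 7 they had sham surgery or a photothrombotic stroke, in which light on the skull activates a dye and clots the cortical vessels below. Tissue was taken on day 28 after perfusion, and there were 6 libraries in each of 4 groups, the NT groups with sham (NT + Sham) or stroke (NT + Stroke) and the same pair in HT mice (HT + Sham and HT + Stroke). Sham mice went through the same procedure without the light. The libraries were taken as 1 mouse each because the tables number them within a group, and nothing further ties them to animals, so P values measure the spread between these libraries.

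Library totals ran from 15922919 to 24865998 counts (median 18497216). All 5 neuron and all 5 cortex markers were detected in every group, while the levels of cortex and neighbouring region markers differed between libraries and groups. Striatum markers summed to medians of 491 CPM in NT + Sham, 816 in NT + Stroke, 386 in HT + Sham and 1122 in HT + Stroke, and olfactory bulb markers to 78.1, 172, 176 and 71.2 CPM (CPM is counts scaled to a library size of 1000000, with library sizes corrected by the TMM method over all 24 libraries). Cortex markers summed to medians of 439, 305, 395 and 326 CPM in the same order. Their sums did not overlap between NT + Sham (415 to 450 CPM) and NT + Stroke (277 to 335 CPM). By the edgeR test described below, all 5 were lower in NT + Stroke (adjusted P under 0.05), beside 11.5% of all genes. With stroke in HT mice 0 were called. The part of these regions in the results was not tested. Beside their labels, 3 HT libraries stood apart. HT + Sham library 6 held Gfap, the astrocyte filament gene, at 549.6 CPM against 162 to 242 CPM in the other HT + Sham libraries, and its summed macrophage markers were 127 CPM against 24.1 to 35.6 CPM. HT + Stroke libraries 1 and 6 held Gfap at 249 and 231 CPM and macrophage markers at 43.8 and 48.1 CPM, whereas NT + Stroke libraries had at least 595 CPM of Gfap and 133 CPM of macrophage markers. The fold changes of the 9 genes, the ratios and the named list genes in HT mice are therefore also given without these libraries. Levels and list counts include them. Leaving them out also changes the region makeup. HT + Sham library 6 had 336 CPM of olfactory bulb, 134 CPM of striatum and 295 CPM of cortex markers, against group medians of 176, 386 and 395 CPM. HT + Stroke libraries 1 and 6 had 378 and 371 CPM of cortex markers, against a group median of 326 CPM.

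Ferritin, ferroportin and the transferrin receptor share a control element, the iron-responsive element, a short RNA hairpin bound by iron regulatory proteins when iron is scarce. In a 5′ UTR the bound hairpin blocks translation, and in the 3′ UTR of Tfrc it protects the RNA from decay. The hairpin was searched in the UTRs of GENCODE M21 on GRCm38 as an unpaired C, 5 bases, the loop CAGTGN and 5 bases pairing with the earlier 5 (G-T pairs allowed), on the transcribed strand. It is shown because 4 of the 9 genes held it, and the capitals mark the loop.
Fth1 5′ UTR, chr19:9982732-9982760, plus strand: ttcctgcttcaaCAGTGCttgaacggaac
Ftl1 5′ UTR, chr7:45459779-45459807, minus strand: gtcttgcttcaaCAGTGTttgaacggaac
Slc40a1 5′ UTR, chr1:45925465-45925493, minus strand: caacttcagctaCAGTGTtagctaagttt
Tfrc 3′ UTR, chr16:32631219-32631247, plus strand: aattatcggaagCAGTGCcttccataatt
Tfrc 3′ UTR, chr16:32631598-32631626, plus strand: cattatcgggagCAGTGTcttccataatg
Tfrc 3′ UTR, chr16:32631663-32631691, plus strand: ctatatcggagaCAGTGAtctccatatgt
Tfrc 3′ UTR, chr16:32631710-32631738, plus strand: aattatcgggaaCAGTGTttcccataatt
Such a match occurred in the 5′ UTR of 28 of 20534 genes (0.136%) and in the 3′ UTR of 127 of 20899 genes (0.608%). Hmox1, Blvrb, Hpx, Cp and Slc11a1 held none in these windows. A match is a description of the letters and was not tested for binding, and RNA levels do not report the translation that a 5′ hairpin controls.

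Per length, the genes spanned a wide range of levels in NT + Sham brain. Mean FPKM (fragments per length of the gene and depth of the library, n = 6, ± SD) was 2721 ± 316 for Fth1, 138 ± 22.5 for Ftl1, 11.4 ± 1.42 for Tfrc, 4.61 ± 0.334 for Blvrb and 3.24 ± 0.272 for Hmox1, and no library range in this order overlapped its neighbour. Cp at 0.904 ± 0.147, Slc40a1 at 0.871 ± 0.128, Slc11a1 at 0.719 ± 0.165 and Hpx at 0.395 ± 0.139 FPKM overlapped each with the next. In NT + Stroke the order changed, with Hmox1 at 11.0 ± 3.56 FPKM in the place after the ferritins, next to Tfrc at 8.96 ± 1.51 FPKM, although these neighbours overlapped. Slc11a1, at 4.42 ± 1.64 FPKM, stood above Cp at 2.43 ± 0.592 FPKM, again with overlap. In HT + Sham mean FPKM was 4.49 ± 1.73 for Hmox1 and 11.5 ± 2.52 for Tfrc, and in HT + Stroke it was 9.42 ± 4.73 and 10.1 ± 1.44.

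**Figure D1:**
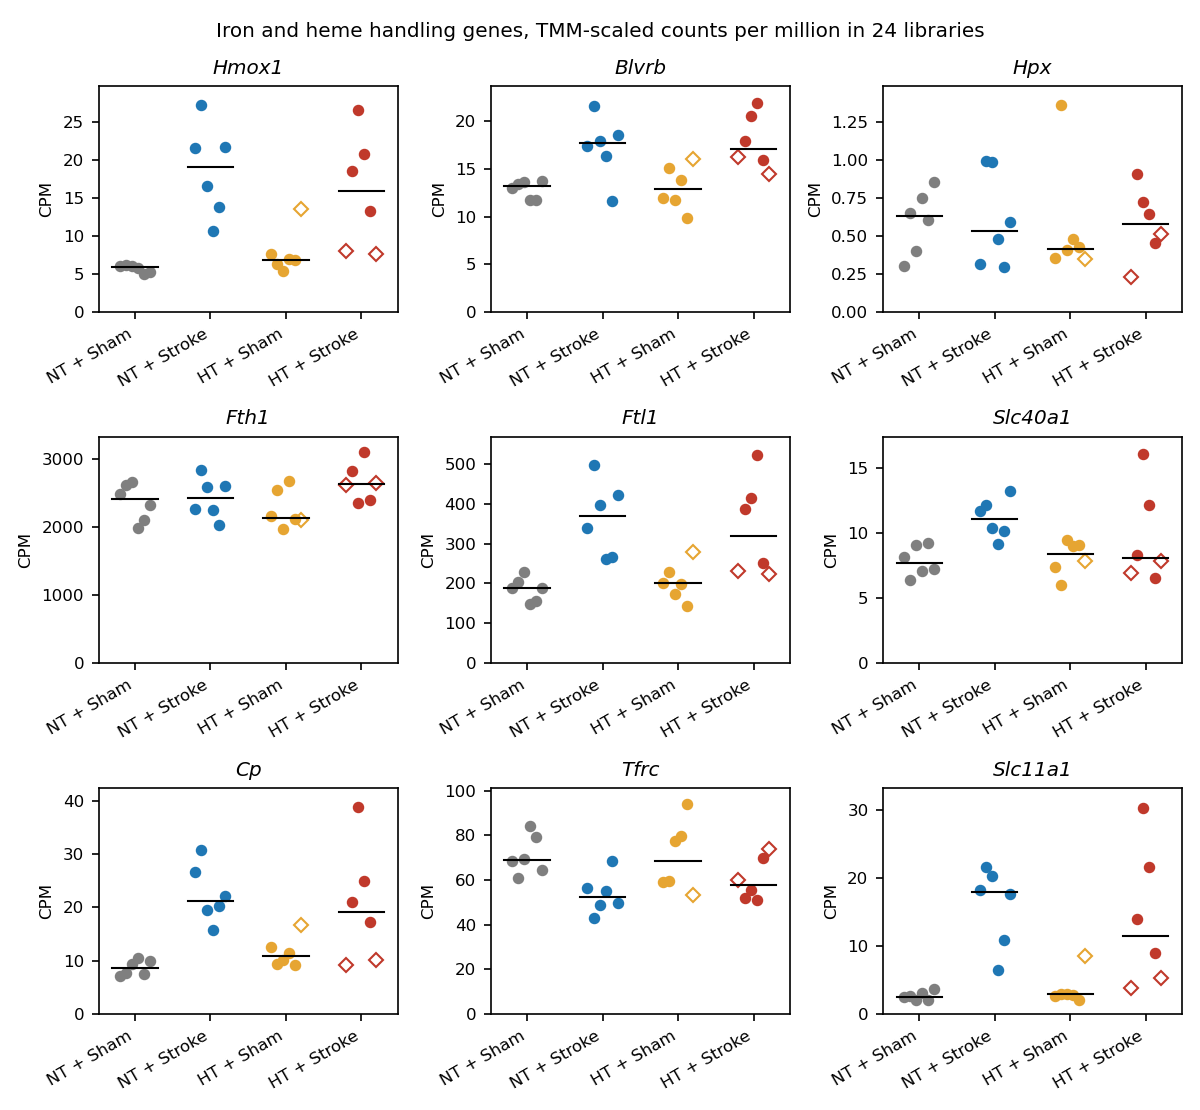
CPM (linear axis from 0) for the 9 iron and heme handling genes in each of 24 libraries, by group. Lines mark group medians, and open diamonds mark HT + Sham library 6 and HT + Stroke libraries 1 and 6. Hmox1, Ftl1, Cp and Slc11a1 lie higher in every NT + Stroke library than in any NT + Sham library, whereas Fth1 and Hpx overlap in all groups.

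Stroke in NT mice raised Hmox1, Blvrb and the genes of ferritin light chain, iron export and phagosomal iron transport, and lowered the transferrin receptor. NT + Stroke was compared with NT + Sham by edgeR's quasi-likelihood test over 16835 genes, with P values adjusted by the Benjamini-Hochberg method. Of the 9 genes, 6 rose (Hmox1, Blvrb, Ftl1, Slc40a1, Cp and Slc11a1), 1 fell (Tfrc) and 2 did not pass the threshold of 0.05 (Fth1 and Hpx). Among all genes tested, 25.9% were called, 14.4% higher and 11.5% lower. The median log2 fold change was 0.51 over the 9 genes and -0.01 over all genes. For 4 of the 9, every stroke library lay above every sham library, which held for 7.78% of all genes, and none of the 9 lay wholly below (5.74% of all genes). The same 7 calls were made in every alternative fit and with any library left out.

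Hmox1, the inducible heme oxygenase, was measured at 4.95, 5.89 and 6.20 CPM (lowest, median and highest library) in NT + Sham and at 10.7, 19.1 and 27.2 CPM in NT + Stroke. All stroke libraries lay above all sham libraries, and the stroke libraries differed more among themselves than the sham ones did. It rose 3.26-fold (log2 fold change 1.70 ± 0.19 SE, adjusted P = 9.99e-06). Blvrb, which reduces flavins and some forms of biliverdin, was at 11.7, 13.3 and 13.7 CPM in NT + Sham and at 11.6, 17.7 and 21.6 CPM in NT + Stroke. NT + Stroke library 5 lay below every sham library and the other 5 above all of them. Its rise was 1.34-fold (log2 0.43 ± 0.11 SE, adjusted P = 0.00925). Hpx, the heme carrier made mainly by liver, was near the limit of detection with 6 to 16 counts per NT + Sham library and 6 to 18 per NT + Stroke library. No difference was detectable at this depth (log2 0.01 ± 0.36 SE, adjusted P = 0.986).

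The ferritin chains differed. Fth1, the chain that oxidizes iron, was at 1989, 2411 and 2668 CPM in NT + Sham and at 2035, 2434 and 2843 CPM in NT + Stroke, and the groups overlapped, with 1 stroke library above every sham library (log2 0.05 ± 0.09 SE, adjusted P = 0.76). Ftl1, the chain that helps the iron core to form, was at 148, 189 and 229 CPM in NT + Sham and at 261, 369 and 498 CPM in NT + Stroke, without overlap. It rose 1.97-fold (log2 0.98 ± 0.17 SE, adjusted P = 0.00089). Ferritin genes have processed copies that can share reads, so the values of both chains are uncertain to that degree. The Ftl1 copy Ftl1-ps1 had 50 to 75 counts in NT + Sham and 100 to 190 in NT + Stroke, where Ftl1 had 2762 to 3963 and 5358 to 10775 counts.

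Of the genes for export, Slc40a1, the only known iron exporter, was at 6.42, 7.70 and 9.25 CPM in NT + Sham and at 9.21, 11.1 and 13.2 CPM in NT + Stroke. The groups met only at the edge, with 5 of 6 stroke libraries above every sham library. The gene rose 1.42-fold (log2 0.51 ± 0.12 SE, adjusted P = 0.00306). Cp, the ferroxidase that works beside ferroportin and is made by astrocytes in brain, was at 7.05, 8.57 and 10.5 CPM in NT + Sham and at 15.7, 21.2 and 30.8 CPM in NT + Stroke. It did not overlap and rose 2.59-fold (log2 1.38 ± 0.15 SE, adjusted P = 5.55e-06).

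On the uptake side, Tfrc was at 60.8, 68.9 and 84.0 CPM in NT + Sham and at 42.8, 52.6 and 68.5 CPM in NT + Stroke. NT + Stroke library 5 lay within the sham range and the other 5 below it. Tfrc fell by 0.40 on the log2 scale (± 0.10 SE, adjusted P = 0.00781). Slc11a1, the phagosomal iron transporter of macrophages, was at 2.06, 2.54 and 3.63 CPM in NT + Sham and at 6.49, 17.9 and 21.6 CPM in NT + Stroke, without overlap. It had the largest rise of the 9 genes in this comparison, 5.92-fold (log2 2.56 ± 0.28 SE, adjusted P = 2.23e-05). Only RNA was measured, and whether the NRAMP1 protein works in these C57BL/6J mice was not tested.

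Markers of several cell types moved along with these genes. Macrophage markers (all 9 detected in each group) summed to 25.0 to 30.9 CPM in NT + Sham and to 133 to 494 CPM in NT + Stroke. Most of that sum was Gpnmb, at 78.7 to 374 CPM in NT + Stroke, and Cd68, at 29.9 to 85.7 CPM, while Mrc1 and Pf4 had log2 fold changes of 1.07 and 1.01 and Lyve1 of -0.13 (adjusted P = 0.823). Microglia markers (8 of 8) summed to 229 to 270 and 339 to 419 CPM. Astrocyte markers (5 of 5) went from 599.8 to 723 CPM up to 1212 to 1638 CPM. Most of that rise was Gfap, at 146 to 183 CPM in NT + Sham and 595 to 1058 CPM in NT + Stroke. All 5 astrocyte markers were called higher, with a median log2 fold change of 0.36. Meningeal fibroblast markers (4 of 4) went from 37.5 to 50.04 CPM up to 157 to 632 CPM. The sum of the neuron markers (5 of 5 detected) was lower, at 7044 to 7598 and 5418 to 6348 CPM. Of these 5, 3 were called lower and 0 higher. Gad1 went the other way, at 297 to 398 CPM in NT + Sham and 339 to 637 CPM in NT + Stroke. Red blood cell markers (6 of 6), which would carry retained blood, overlapped at 64.6 to 92.4 and 41.4 to 181 CPM. In bulk tissue, more cells of a type and more RNA per cell cannot be told apart, and the part of these cell types in the changes of the 9 genes was not tested.

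Ratios of partner genes within a library do not depend on library scaling. They reuse genes and libraries tested above, so they are not separate evidence. Hmox1 over Hmox2, the constitutive heme oxygenase, was 0.0983, 0.120 and 0.126 in NT + Sham (lowest, median and highest ratio of FPKM) and 0.210, 0.363 and 0.519 in NT + Stroke, a 3.01-fold higher geometric mean. Hmox2 itself had a log2 fold change of 0.06 ± 0.05 SE (adjusted P = 0.482). Ftl1 over Fth1 was 0.0475, 0.0498 and 0.0554 against 0.0750, 0.0978 and 0.113, 1.88-fold higher. Slc40a1 over Tfrc was 0.0579, 0.0787 and 0.0905 against 0.102, 0.145 and 0.195, 1.89-fold higher. All 3 ratios were higher in 6 of 6 stroke libraries than in any sham library (exact two-sided permutation test, P = 0.00216, the smallest that 6 against 6 allows, adjusted P = 0.00866 over 12 tests).

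**Figure D2:**
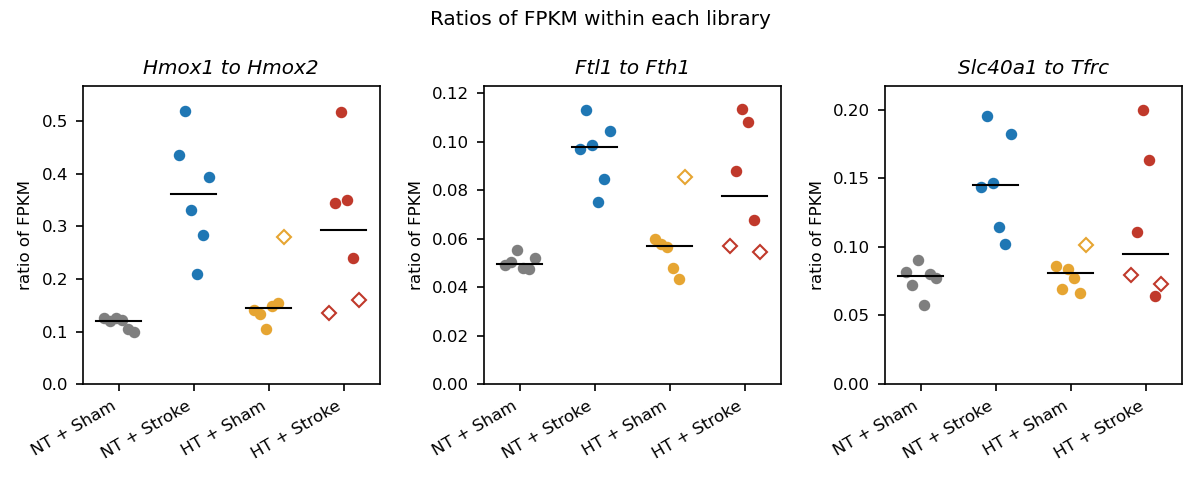
Ratio of FPKM values within each library (linear axis from 0) for Hmox1 to Hmox2, Ftl1 to Fth1 and Slc40a1 to Tfrc, by group, with lines at group medians and open diamonds for the 3 HT libraries that stood apart. The NT groups do not overlap in any panel, and HT + Stroke spans from sham levels to the top of the NT + Stroke range.

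With angiotensin II the estimates for stroke had the same sign as in NT mice for all 8 genes tested, but none passed the threshold. HT + Stroke was compared with HT + Sham over 16741 genes, of which 0.645% were called (108 genes). Hpx was too low to be tested, and of the other 8 genes 0 were called by edgeR, 2 by DESeq2 (Blvrb and Slc11a1) and 0 by limma on FPKM. When all 4 groups shared 1 edgeR fit, 4 were called (Blvrb, Ftl1, Hmox1 and Slc11a1). At an unadjusted P under 0.05, 6 of the 8 were higher in HT + Stroke, as were 10.5% of all genes. The median log2 fold change was 0.60 over the 8 genes and 0.00 over all genes. None of the 9 genes was free of overlap between these groups, as 0.579% of all genes were upward and 0.567% downward.

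Hmox1 was at 5.39, 6.89 and 13.6 CPM in HT + Sham and at 7.65, 15.9 and 26.5 CPM in HT + Stroke (log2 1.03 ± 0.33 SE, adjusted P = 0.14). The highest sham library was library 6 and the lowest stroke libraries were 6 and 1, so that only 3 stroke libraries exceeded all sham libraries. Slc11a1 was at 2.09, 2.90 and 8.61 CPM in HT + Sham and at 3.81, 11.4 and 30.3 CPM in HT + Stroke (log2 1.92 ± 0.55 SE, adjusted P = 0.118). Its highest sham value was again library 6. Ftl1 was at 143, 199.9 and 278 CPM in HT + Sham and at 223, 319 and 522 CPM in HT + Stroke (log2 0.74 ± 0.23 SE, adjusted P = 0.127). Cp was at 9.15, 10.8 and 16.6 CPM and at 9.22, 19.2 and 38.8 CPM (log2 0.83 ± 0.33 SE, adjusted P = 0.229). For Cp, HT + Stroke libraries 1 and 6 lay among the sham values and the other 4 above all of them.

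Blvrb had the smallest adjusted P of the set in HT mice. It was at 9.89, 12.9 and 16.0 CPM in HT + Sham and at 14.5, 17.1 and 22.0 CPM in HT + Stroke (log2 0.46 ± 0.13 SE, adjusted P = 0.0976). Fth1 was at 1975, 2144 and 2684 CPM in HT + Sham and at 2352, 2635 and 3115 CPM in HT + Stroke (log2 0.24 ± 0.10 SE, adjusted P = 0.211). Slc40a1 was at 6.04, 8.43 and 9.46 CPM in HT + Sham and at 6.53, 8.09 and 16.1 CPM in HT + Stroke (log2 0.26 ± 0.21 SE, adjusted P = 0.562). Its HT + Stroke median lay under the sham median, and 2 stroke libraries stood above every sham library. Tfrc was at 53.3, 68.7 and 93.9 CPM and at 51.3, 57.7 and 74.1 CPM (log2 -0.21 ± 0.13 SE, adjusted P = 0.448). Hpx had 6 to 22 counts per HT + Sham library and 4 to 16 per HT + Stroke library.

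Leaving out HT + Sham library 6 alone gave a log2 fold change of 1.27 for Hmox1 (adjusted P = 0.0678) and 2.38 for Slc11a1 (adjusted P = 0.0632). Without HT + Stroke library 1 they were 1.16 (adjusted P = 0.0613) and 2.11 (adjusted P = 0.0504), and without HT + Stroke library 6 they were 1.16 (adjusted P = 0.0685) and 2.08 (adjusted P = 0.075). With any library left out, 0 of the genes were called by edgeR. With all 3 left out, the log2 fold changes were 1.58 for Hmox1, 2.79 for Slc11a1, 1.28 for Cp, 1.06 for Ftl1, 0.62 for Blvrb, 0.40 for Slc40a1, 0.22 for Fth1, 0.18 for Hpx and -0.37 for Tfrc. These 3 libraries were chosen for their injury genes in the same data, which partly fixes the size of the difference, so no test is given for the values without them.

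**Figure D3:**
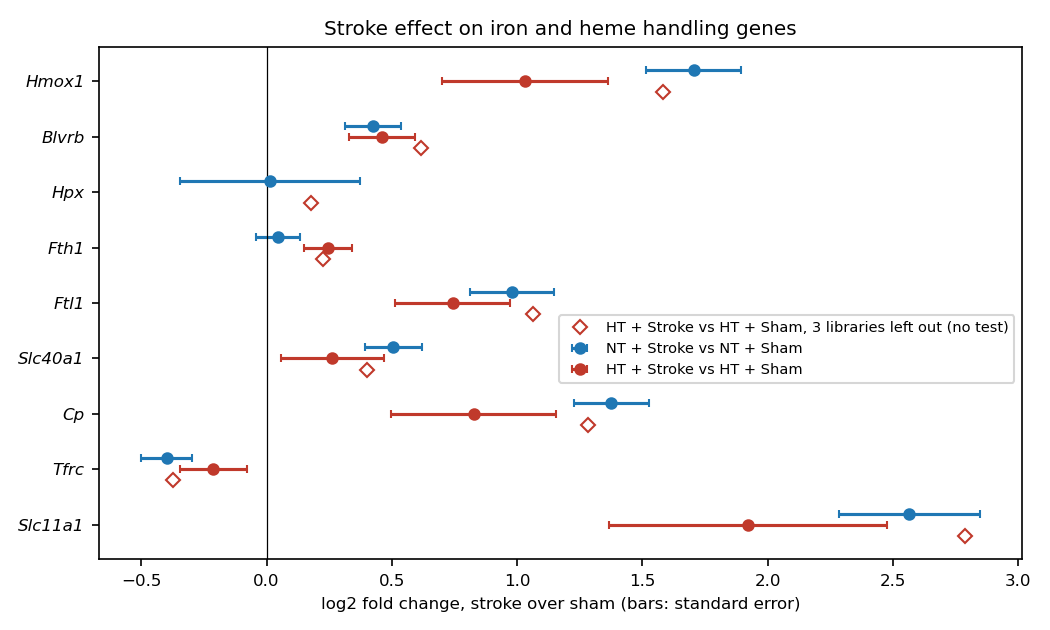
Log2 fold change of stroke over sham (horizontal axis, bars show the standard error) for the 9 genes in NT mice (blue) and HT mice (red), with open diamonds for HT mice after leaving out HT + Sham library 6 and HT + Stroke libraries 1 and 6, without a test. Hmox1 is at 1.70 in NT mice, 1.03 in HT mice and 1.58 in HT mice without those libraries. Hpx was not tested in HT mice.

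In HT mice no ratio passed the threshold, and whether the ratio changes differed from those in NT mice was not tested. Hmox1 over Hmox2 was 1.72-fold higher in HT + Stroke than in HT + Sham (exact permutation P = 0.0563, adjusted P = 0.135), Ftl1 over Fth1 was 1.37-fold higher (exact P = 0.0909, adjusted P = 0.182) and Slc40a1 over Tfrc was 1.31-fold higher (exact P = 0.225, adjusted P = 0.278). The ranges in HT + Stroke were wide, from 0.136 to 0.518 for Hmox1 over Hmox2 and from 0.0642 to 0.1997 for Slc40a1 over Tfrc. Without the 3 HT libraries the folds were 2.59 for Hmox1 over Hmox2, 1.75 for Ftl1 over Fth1 and 1.62 for Slc40a1 over Tfrc, with no test.

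Angiotensin II without stroke changed none of the genes past the threshold. Between HT + Sham and NT + Sham, edgeR called 0 of 16581 genes (0.0%), and so did DESeq2 and limma. At an unadjusted P under 0.05, 8.03% of all genes differed, 4.96% higher and 3.08% lower, and 2 of the 8 genes tested were higher, Hmox1 (log2 0.46 ± 0.18 SE, adjusted P = 0.53) and Cp (log2 0.42 ± 0.15 SE, adjusted P = 0.472). In Hmox1, 5 of 6 HT + Sham libraries lay above every NT + Sham library. Without HT + Sham library 6 the log2 fold changes were 0.21 for Hmox1, 0.28 for Cp and 0.02 for Slc11a1, which had been 0.48 ± 0.30 SE with it. Hmox1 over Hmox2 was 1.32-fold higher in HT + Sham (exact permutation P = 0.039, adjusted P = 0.117), and 1.17-fold without library 6.

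Angiotensin II in mice with stroke gave no call either. Between HT + Stroke and NT + Stroke, edgeR, DESeq2 and limma called 0 of 17008 genes tested by edgeR (0.0%), and 7.23% had an unadjusted P under 0.05, none of them among the 9. The log2 fold changes ran from -0.23 ± 0.33 SE for Hmox1 to 0.16 ± 0.12 SE for Tfrc. Without HT + Stroke libraries 1 and 6 they ran from -0.05 for Slc40a1 to 0.24 for Slc11a1, with Hmox1 at 0.09 and Cp at 0.18. Whether the effect of stroke differed with angiotensin II was tested as an interaction over all 4 groups and 17608 genes, of which edgeR called 0 (0.0%), limma 0 and DESeq2 22, none from the set. An unadjusted P under 0.05 was reached by 10.4% of all genes and by 0 of the 9. The interaction was -0.68 ± 0.40 SE on the log2 scale for Hmox1 (adjusted P = 0.558), -0.56 ± 0.38 SE for Cp (adjusted P = 0.613) and -0.65 ± 0.64 SE for Slc11a1 (adjusted P = 0.737). Without the 3 HT libraries the values were -0.12, -0.09 and 0.23, with no test. These comparisons share libraries with those of stroke. The 3 HT libraries were chosen by injury genes, and no NT library was left out. That choice partly fixes the values without them, so no conclusion is drawn from the shifts.

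Among the 12 stroke libraries, most pairs of the genes that rose in NT mice were correlated, although Blvrb with Slc40a1 (r = 0.54, permutation P = 0.069, adjusted P = 0.0863) and with Cp (r = 0.57, permutation P = 0.0522, adjusted P = 0.0712) did not pass by Pearson's r. Correlations were computed on log2(CPM + 1) for all 36 pairs and for each gene with the summed microglia and macrophage markers, 45 relations in all, and 28 had an adjusted P under 0.05 by Pearson's r, 22 of them positive. The other 6 were negative and each involved Tfrc. By Spearman's rho, 26 of the 28 also passed. Their absolute r was 0.63 or more, reached by 21 of the 36 pairs and 7 of the 9 relations to the markers, whereas over the 15593 genes it was reached by 11.5% of all gene pairs, 14.0% of genes with Hmox1 and 15.4% of genes with the summed markers. Hmox1 rose with Cp (r = 0.96, permutation P = 1e-05, the smallest that 100000 resamples allow, adjusted P = 6.43e-05, rho = 0.96, adjusted P = 0.000675). The r was 0.91 without the libraries farthest from the median, which were HT + Stroke 1 and 6, 0.94 within NT + Stroke and 0.99 within HT + Stroke. Hmox1 with Ftl1 gave r = 0.89 (permutation P = 0.00015, adjusted P = 0.00075, rho = 0.87, adjusted P = 0.00189), and 0.84 without those libraries. Hmox1 with Slc40a1 gave r = 0.81 (permutation P = 0.00188, adjusted P = 0.00498, rho = 0.87, adjusted P = 0.00192), and 0.75 without them.

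Tfrc ran against the ferritin light chain. Their r was -0.84 (permutation P = 0.0005, adjusted P = 0.00225, rho = -0.83, adjusted P = 0.0037), -0.82 without the libraries farthest from the median, -0.88 within NT + Stroke (exact P = 0.0222) and -0.86 within HT + Stroke (exact P = 0.0417). Tfrc with Hmox1 gave r = -0.70 (permutation P = 0.0112, adjusted P = 0.0265, rho = -0.66, adjusted P = 0.0342). Within NT + Stroke that relation was -0.64 (exact P = 0.181) and within HT + Stroke -0.73 (exact P = 0.121), so it did not pass within either group. Fth1 passed with Blvrb (r = 0.67, permutation P = 0.0157, adjusted P = 0.0283, rho = 0.51, adjusted P = 0.118), and r was 0.22 without the libraries farthest from the median, so this relation rests on those, NT + Stroke 5 and HT + Stroke 4. Within NT + Stroke, Fth1 had r = 0.94 with Ftl1 (exact P = 0.0139), 0.91 with Blvrb (exact P = 0.00139) and -0.98 with Tfrc (exact P = 0.00556), and within HT + Stroke 0.47, 0.35 and -0.50 (exact P = 0.324, 0.489 and 0.31). Fth1 with Hmox1 gave r = 0.19 (permutation P = 0.55, adjusted P = 0.599, rho = 0.17, adjusted P = 0.649, and 0.48 without HT + Stroke 1 and 6).

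The summed microglia and macrophage markers went with Hmox1 (r = 0.98, permutation P = 1e-05, adjusted P = 6.43e-05, rho = 0.92, adjusted P = 0.00081, r = 0.95 without HT + Stroke 1 and 6) and with Slc11a1 (r = 0.98, permutation P = 1e-05, adjusted P = 6.43e-05, rho = 0.99, adjusted P = 0.00045, r = 0.96 without them). They went with Slc40a1 less closely (r = 0.82, permutation P = 0.00113, adjusted P = 0.00339, rho = 0.86, adjusted P = 0.0026, r = 0.79 without them). With Fth1 r was 0.17 (permutation P = 0.588, adjusted P = 0.615, rho = 0.16, adjusted P = 0.649, r = 0.52 without them). Correlations with the sums of other cell type markers were not computed. In HT + Stroke the meningeal fibroblast sum was also lowest in libraries 1 and 6, at 63.5 and 67.8 CPM, and highest in library 3, at 723 CPM. The share of these genes' change that lies in microglia and macrophages was not tested.

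**Figure D4:**
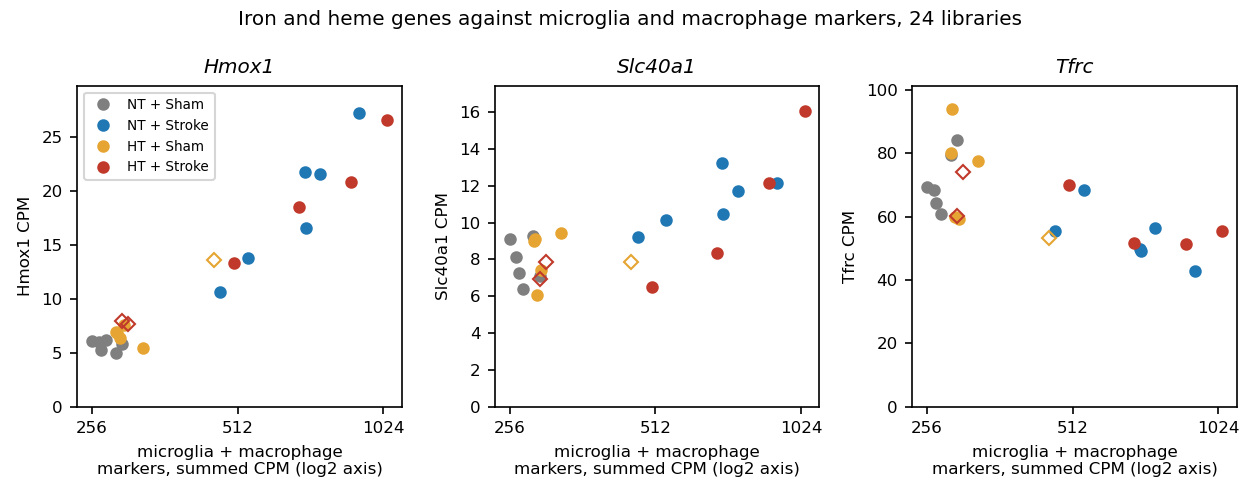
CPM of Hmox1, Slc40a1 and Tfrc (vertical axes, linear from 0) against the summed CPM of the microglia and macrophage markers (horizontal axis, log2 scale) in the 24 libraries, colored by group, with open diamonds for HT + Sham library 6 and HT + Stroke libraries 1 and 6. Those HT + Stroke libraries lie beside the sham libraries in the Hmox1 panel, and HT + Sham library 6 lies beside the lowest NT + Stroke libraries.

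Over the same 12 libraries and 15593 genes, the genes most like Hmox1 were Lbp, which binds bacterial lipopolysaccharide (r = 0.99), Rnase4, a secreted ribonuclease (r = 0.99), and Col1a2, a chain of collagen I (r = 0.98). Those most like Cp were Mxra8 (r = 0.98), the lysosomal protease gene Ctsc (r = 0.98) and the macrophage surface gene Adgre1 (r = 0.98). Slc40a1 was closest to Il7r, the interleukin 7 receptor (r = 0.95), Slfn8 (r = 0.95) and Cd274, which encodes the ligand PD-L1 (r = 0.94). Tfrc was closest to genes of another kind, the potassium channel gene Kcnc2 (r = 0.92), the respiratory complex I assembly gene Ndufaf4 (r = 0.91) and the lipid flippase gene Atp11b (r = 0.91). These are descriptions over libraries that share their depth and tissue makeup.

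Beyond the 9 genes, 5 lists of other iron and heme genes held 63 names, 60 of them in the tables. In NT mice 56 were tested, of which 15 rose and 2 fell with stroke, beside 14.4% and 11.5% of all genes, and their median log2 fold change was 0.09. DESeq2 called 16 higher and 3 lower, and the edgeR fit of all 4 groups 13 higher and 0 lower. For iron uptake and transfer, 5 of 13 rose and 1 fell. Lcn2, lipocalin 2, which binds iron-loaded siderophores, was at 0.234, 0.460 and 1.46 CPM in NT + Sham and at 17.7, 46.9 and 73.9 CPM in NT + Stroke (log2 6.14 ± 0.51 SE, adjusted P = 1.11e-05). Steap4, a metalloreductase, was at 0.0536, 0.365 and 0.480 CPM against 4.17, 7.96 and 15.1 CPM (log2 4.71 ± 0.36 SE, adjusted P = 3.82e-07). Scara5, a receptor for ferritin, had a log2 fold change of 2.14 ± 0.48 SE (adjusted P = 0.00282). Its levels were low and overlapped, at 0.101, 0.222 and 0.653 CPM in NT + Sham and 0.497, 0.881 and 2.98 CPM in NT + Stroke. Tfr2, the second transferrin receptor, fell by 0.37 on the log2 scale (± 0.12 SE, adjusted P = 0.0284).

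In the other lists, heme breakdown, transport and scavenging had 2 of 11 genes higher, the hemoglobin binder Hp (log2 1.99 ± 0.45 SE, adjusted P = 0.00297) and Lrp1, the receptor for hemopexin with heme (log2 0.21 ± 0.06 SE, adjusted P = 0.0177). Hp was near the limit of detection, at 0.107, 0.342 and 0.561 CPM in NT + Sham. In NT + Stroke it was at 0.280, 1.44 and 2.69 CPM, and the groups overlapped. Cd163, the receptor for haptoglobin with hemoglobin, gave a log2 fold change of 0.27 ± 0.27 SE (adjusted P = 0.518). Blvra, the gene of biliverdin reductase A, was not called. It was at 19.1, 22.2 and 24.5 CPM in NT + Sham and at 17.7, 22.3 and 25.7 CPM in NT + Stroke. Of the NRF2 and BACH1 list, named for an activator and a repressor of Hmox1, 5 of 10 rose. Nfe2l2 (log2 1.02 ± 0.11 SE), Nqo1 (log2 0.94 ± 0.13 SE) and Bach1 itself (log2 0.66 ± 0.11 SE) were among them. So were Slc7a11 (log2 0.59 ± 0.11 SE) and the thioredoxin reductase gene Txnrd1 (log2 0.23 ± 0.07 SE, adjusted P = 0.022). Keap1, Gclc, Gclm, Srxn1 and Gpx4 were not called. Iron storage, export and regulation had 2 of 11 higher, Hfe (log2 1.095 ± 0.13 SE) and Bmp6 (log2 0.91 ± 0.12 SE). Heme synthesis had 1 of 11 higher, Ppox (log2 0.26 ± 0.07 SE), and 1 lower, Cpox, which fell by 0.22 on the log2 scale (± 0.08 SE, adjusted P = 0.0436). Median log2 fold changes were 0.29 for uptake, 0.11 for storage and export, -0.10 for heme synthesis, 0.15 for heme breakdown and 0.15 for the NRF2 and BACH1 list.

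**Figure D5:**
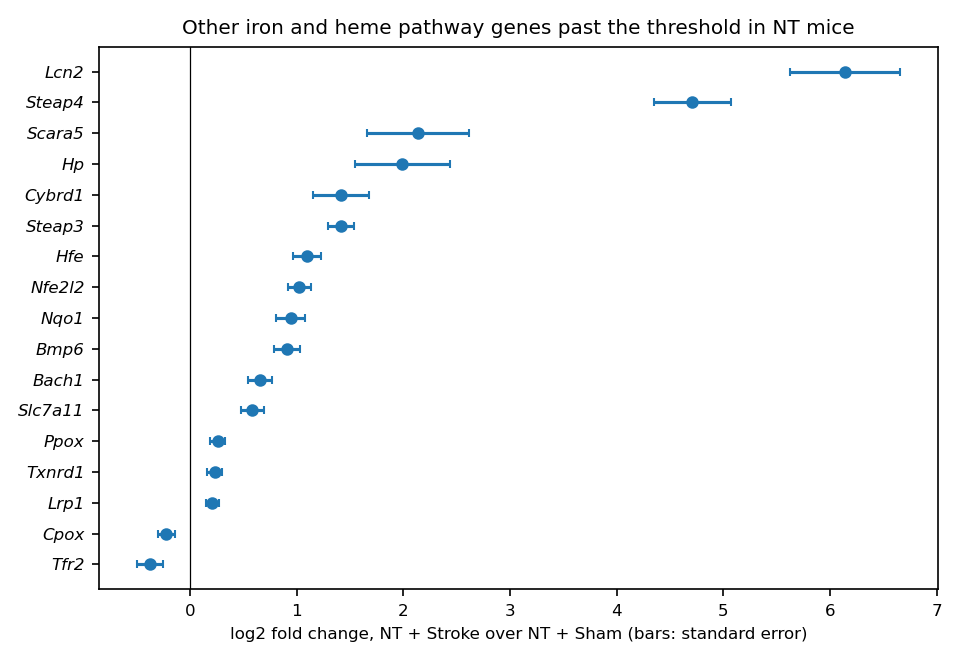
Log2 fold change in NT + Stroke over NT + Sham (horizontal axis, bars show the standard error) for the 17 genes of the 5 further iron and heme lists that passed the threshold. Lcn2 at 6.14 and Steap4 at 4.71 lie far to the right, and Cpox and Tfr2 lie left of 0.

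In HT mice 55 genes of these lists were tested and 0 were called by edgeR or limma, 4 by DESeq2 and 5 in the fit of all 4 groups, all higher. At an unadjusted P under 0.05, 10 were higher and 3 lower, beside 10.5% and 6.5% of all genes. Lcn2 had a log2 fold change of 4.62 ± 1.19 SE (adjusted P = 0.099) and Steap4 of 3.51 ± 0.92 SE (adjusted P = 0.099). Hp gave 0.58 ± 0.67 SE (adjusted P = 0.718), Tfr2 -0.06 ± 0.17 SE (adjusted P = 0.893), Cpox -0.05 ± 0.11 SE (adjusted P = 0.874), Lrp1 0.21 ± 0.10 SE (adjusted P = 0.303) and Txnrd1 0.14 ± 0.09 SE (adjusted P = 0.478), while Scara5 was too low to be tested. Without the 3 HT libraries the log2 fold changes were 6.71 for Lcn2, 4.54 for Steap4, 0.63 for Hp, -0.20 for Tfr2, -0.14 for Cpox, 0.28 for Lrp1 and 0.18 for Txnrd1, with no test. Of the list genes 0 were called for angiotensin II in sham mice, in stroke mice or in the interaction by any of these tools. At an unadjusted P under 0.05, 5 of 53 were higher and 0 lower in sham mice (8.03% of all genes in either direction), 1 of 56 higher and 5 lower in stroke mice (7.23%), and 2 of 57 higher and 7 lower in the interaction (10.4%). Transferrin, listed in the tables as Trf and chosen after its values were seen, is made by oligodendrocytes in brain. It was higher with stroke in NT mice (22.6, 29.2 and 36.2 CPM against 33.3, 43.3 and 53.2 CPM, log2 0.52 ± 0.14 SE, adjusted P = 0.0149) and in HT mice (24.7, 29.0 and 39.7 CPM against 41.8, 48.9 and 70.8 CPM, log2 0.80 ± 0.14 SE, adjusted P = 0.0183, and 0.91 without the 3 libraries). Oligodendrocyte markers (6 of 6) summed to 3359 to 4746 and 4125 to 5363 CPM in the NT groups and to 3559 to 4672 and 4866 to 5404 CPM in the HT groups, and their part in the result for Trf was not tested.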

How the data were processed

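RNA was sequenced from brain tissue as 24 libraries in 4 groups. The authors deposited 4 tables with whole-number read counts per gene, not normalized, and FPKM values that they computed from counts and gene length. Per the labels, featureCounts 1.5.0-p3 and DESeq2 1.20.0 were used upstream. The aligner and the genome build were not given in the sources used here, nor was whether counting used strand, so reads of overlapping or antisense genes cannot be told apart. Gene positions of 8 of the 9 genes equal those of GRCm38 in GENCODE M21. The deposited columns of fold changes and p-values hold the authors' own comparisons and were not used, nor were 48 columns of normalized counts and their group means.

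Tables were joined by gene identifier, and libraries present in more than 1 table were checked (48 comparisons, 0 differed). Counts were tested in R 4.3.3 with edgeR 4.0.16 (filterByExpr with a minimum count of 10 and a minimum total of 15, TMM, robust quasi-likelihood fit, two-sided, on the libraries of the groups compared), and P values were adjusted over every gene that entered a test (Benjamini-Hochberg, called under 0.05). A standard error is the log2 fold change divided by the square root of F. CPM was computed from counts and library totals multiplied by TMM factors of all 24 libraries. Alternatives were DESeq2 1.42.0, other scaling and filters, limma 3.58.1 on log2(FPKM + 1) and log2(FPKM + 0.1), all 4 groups in 1 fit and leaving out each library. The edgeR step was tested on simulated data. Single ratios had exact permutation tests, and correlations 100000 permutations, with SciPy 1.17.1 and NumPy 2.4.6.

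The 9 genes and all lists were chosen with earlier results of these data known. In the further lists, the genes named by rule were those called in NT mice whose change ranked among the 4 highest or 4 lowest, and other list genes after their values were seen. For each of Hmox1, Slc40a1, Tfrc and Cp, the 3 genes with the highest r and a mean of at least 1 CPM were named. No sequencing batch or date was given.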

Additional observations from a re-analysis of the deposited data

Results flagged for a closer look

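Within each group of 6 libraries, the highest and the lowest value of each of the 9 genes (CPM) and 3 ratios (log2 scale) was compared with its nearest neighbour, relative to the range of the group. Of 48 groups, 3 held a library whose gap exceeded Dixon's 95% critical value, where chance gives about 1 in 20 groups. All 3 were in HT + Sham. Hmox1 was 13.6 CPM in library 6, with a gap of 0.732 of the range. Slc11a1 was 8.61 CPM in the same library, with a gap of 0.857. Hpx was 1.36 CPM in library 2, with a gap of 0.869, and rests on 22 counts. Hmox1 over Hmox2 was also highest in HT + Sham library 6, at 0.280 against 0.105 to 0.153 in the others. On the log2 scale its gap did not exceed the critical value.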

How the results depend on the processing

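For NT + Stroke vs NT + Sham, the 6 higher and 1 lower calls among the 9 genes were made under every alternative, and leaving out 1 library gave 3530 to 4210 genes in all. Without scaling beyond library size, 2987 genes were higher and 1021 lower there, against 2426 and 1939 with TMM. For HT + Stroke vs HT + Sham, the count of all genes called was 108 with edgeR, 907 with DESeq2, 1125 with all 4 groups in 1 fit, 67 without scaling, 179 with all genes that had at least 1 count, 68 with limma on log2(FPKM + 1), 2842 at an unadjusted P under 0.05 and 9 to 533 with 1 library left out (533 without HT + Stroke library 1). Of the 9 genes, those called higher were 0 with edgeR, 2 with DESeq2, 4 with all 4 groups in 1 fit and 6 at an unadjusted P under 0.05. An unadjusted P under 0.05 gave 1332 genes and 2 of the set for HT + Sham vs NT + Sham, 1230 genes for HT + Stroke vs NT + Stroke and 1836 for the interaction, where DESeq2 called 22. With 1 library left out, the log2 ratio of Hmox1 to Hmox2 in HT + Stroke vs HT + Sham ran from 0.59 to 0.97 (exact permutation P from 0.0216 to 0.113), that of Ftl1 to Fth1 from 0.34 to 0.57 (exact P from 0.039 to 0.182), that of Hmox1 to Hmox2 in HT + Sham vs NT + Sham from 0.22 to 0.51 (exact P from 0.00433 to 0.0779) and that of Slc40a1 to Tfrc in HT + Sham vs NT + Sham from -0.0057 to 0.13.

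Leaving out the 3 HT libraries, an alternative added after seeing the data, turned the sign of the interaction of Slc11a1 (from -0.65 to 0.23) and Ftl1 (from -0.24 to 0.09) and, in HT + Stroke vs NT + Stroke, of Hmox1 (from -0.23 to 0.09), Cp (from -0.15 to 0.18), Slc11a1 (to 0.24), Ftl1 (to 0.10) and Hpx (to 0.17), none of which had been called. Leaving out 1 library gave Hpx -0.17 to 0.15 in NT + Stroke vs NT + Sham, Slc40a1 -0.00411 to 0.12, Tfrc -0.11 to 0.059 and Blvrb -0.044 to 0.097 in HT + Sham vs NT + Sham, Ftl1 -0.28 to 0.000445, Slc11a1 -0.56 to 0.016, Hpx -0.22 to 0.13 and Blvrb -0.037 to 0.13 in HT + Stroke vs NT + Stroke, and Hpx -0.13 to 0.50 and Blvrb -0.062 to 0.10 in the interaction (log2 scale). Tfrc in HT + Sham vs NT + Sham was 0.00924 without scaling and 0.00377 with upper-quartile scaling, and the interaction without scaling was -0.00407 for Hpx and -0.035 for Blvrb. Without the libraries farthest from the median, r was -0.15 for Fth1 with Slc40a1 and -0.12 for Fth1 with Cp. The cause was not tested. The 3 HT libraries were chosen by injury genes, which partly fixes the turns of sign seen without them. The tables number the libraries 1 to 6 in each group, but nothing ties a number across groups. Deviations of libraries with equal numbers correlated from -0.518 to 0.408 over the 4 comparisons, with at most 3 of 6 pairs over 0.1 and at most 5 of 12 libraries closest to their own number. A fit with the replicate block, added after seeing the data, called 46 genes in HT + Stroke vs HT + Sham and 4636 in NT + Stroke vs NT + Sham, changed no call among the 9 genes and gave Hpx -0.032 in NT mice. Depth limited Hpx, which had 4 to 22 counts per library.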

Other observations

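Red blood cell markers bear on heme because perfused tissue can keep blood. Their sum (6 genes) was highest in HT + Sham library 5, at 304 CPM, against 47.4 to 140 CPM in the other HT + Sham libraries, and second in NT + Stroke library 5, at 181 CPM. Alas2, which starts heme synthesis in red cells and whose 5′ UTR also held the iron-responsive element, was highest in the same libraries of these groups, at 9.31 and 4.09 CPM. Hmox1 in these libraries was 6.85 and 13.8 CPM, within the range of its group. Choroid plexus markers (6 of 6), which can bring in iron transport genes of that tissue, summed to 7.60 to 16.4 CPM in NT + Sham and to 15.2 to 32.1 CPM in NT + Stroke. Of these, Aqp1 (log2 fold change 1.87, edgeR adjusted P = 0.00371) and Clic6 (1.08, adjusted P = 0.0427) rose, while the defining marker Ttr was at -1.12 on that scale (adjusted P = 0.388) and Folr1, at 0.201 to 0.586 and 0.280 to 0.559 CPM, was too low to be tested.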
